A study of Mus musculus with 18 samples.

Results

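The 12 astrocyte and microglia libraries, of 18 in the series, were used to ask for which genes the effect of the *Atxn2*-CAG100 knock-in differed between both glial fractions. They fell into 4 groups of 3 libraries, namely WT astrocytes, KIN astrocytes, WT microglia and KIN microglia, and the quantity tested was the log2 fold change of KIN against WT in microglia minus the same log2 fold change in astrocytes, called the interaction from here on. All reads under 1 gene name were summed, and 13277 of 35960 names were tested because they had at least 5 reads in at least 2 of the 12 libraries. A positive interaction means that the KIN minus WT difference was the more positive one in microglia, and it can arise from an increase in microglia, a decrease in astrocytes, or both.

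WT mice and homozygous *Atxn2*-CAG100-KIN mice were 10 months old and of C57BL/6 background. The KIN allele carries a pure expansion of CAG codons in the endogenous *Atxn2* gene, so every cell type of the KIN brain carries it. Mutants and WT littermates were of the same sex within a pair, and the sexes were mixed among the pairs. No treatment was given. From dissociated brain, microglia were taken first with magnetic beads against CD11b, and astrocytes were then taken from the remaining cells with beads against ACSA-2, so the astrocyte fraction can hold what the first step left behind. Each brain gave both fractions, so the astrocyte and microglia libraries of a genotype came from the same mice, and the labels do not say which library pairs with which. The RNA of these bead fractions was sequenced as short reads that were counted without regard to strand. In such bulk fractions, fewer cells of a type and less RNA per cell cannot be told apart.

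Microglia are the resident macrophages of the brain. Around dying neurons or protein deposits they lower part of their homeostatic genes and raise a set known as the disease-associated microglia program, which includes receptors for lipids and debris, lipid carriers such as *Apoe* and lysosomal enzymes. Astrocytes take up glutamate and potassium, supply lipids, and can become reactive. ATXN2 is an RNA-binding protein, and its expanded form causes spinocerebellar ataxia type 2.

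Total counts of the 12 libraries were between 2118317 and 3296398, but the 10 genes with the highest counts took 76.0% to 85.3% of each library, which left 431913 to 648888 counts for all others. WT microglia replicate 2 and KIN astrocyte replicate 2 had the lowest scaling factors, 0.574 and 0.753, and results that rest on them are given with and without them. Defining markers differed between the bead fractions. *Trem2* and *Tmem119*, microglial membrane proteins, had 174 to 394 and 173 to 295 counts in the microglia libraries but at most 2 and 1 in any astrocyte library. *Aqp4*, the astrocyte water channel, had 55 to 150 counts in the astrocyte libraries and at most 4 in any microglia library. The summed level of 33 astrocyte identity genes was 2262, 3532 and 2397 CPM in WT and 1426, 1373 and 1497 CPM in KIN astrocytes, against 94.1 to 154 CPM in microglia, so KIN astrocytes lay below WT. Their summed 24 oligodendrocyte and myelin genes were at 1740, 1706 and 1818 CPM. The astrocyte sum leaves out *Ttyh1*, which had 260653 counts over the 12 libraries, so these sums do not rank the cell types. *Atxn2* itself had 32, 34 and 33 counts in WT astrocytes and 37, 19 and 19 in KIN astrocytes. In WT microglia its counts were 41, 14 and 25, against 21, 17 and 18 in KIN microglia. Counts per gene do not read the repeat, so these values do not check the genotype labels. The interaction of *Atxn2* was -0.32 ± 0.41 (SE, adjusted *p* = 0.80).

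In all, 103 genes had a higher and 49 a lower interaction with an adjusted *p* up to 0.05 and a log2 value of 1 or more in size, which are 0.776% and 0.369% of the genes tested. With libraries of the same genotype and number taken as 1 mouse and the mouse as a block, the calls were 234 higher and 124 lower. With unadjusted *p* values up to 0.05 and no limit on size, 946 genes were higher and 797 lower, and the median over all genes was -0.04. The fits within each fraction show where the differences came from. Within astrocytes, 262 genes were called higher in KIN (1.97% of genes) and 694 lower (5.23%). Within microglia, 110 genes were called higher (0.829%) and 175 lower (1.32%).

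Of the 103 genes with a higher interaction, 83 were called lower in KIN astrocytes without a call in microglia. Another 10 were called higher in KIN microglia without a call in astrocytes, 2 were called in both fractions in opposite directions, and 8 had no call in either fraction. Thus most of the positive interactions went with a fall in the astrocyte fraction, while the disease-associated genes described next went with a rise in microglia. Of the 49 genes with a lower interaction, 21 were called lower in KIN microglia only, 19 higher in KIN astrocytes only, *Mapk8ip1* both, and 8 had no call in either fraction. By annotation, 87 of the 103 were protein-coding genes and 15 were processed pseudogenes. All of the 49 were protein-coding, as were 12715 of the 13277 genes tested. In 18 genes of the 103 and in 18 of the 49, at least 1 of the 4 groups had 3 counts or fewer in every library, which is taken as the floor here. For those genes the fitted interaction depends on the prior count of the fit and is no bound. The calls also depended on single libraries: without KIN astrocyte replicate 2 there were 39 higher calls, and without WT astrocyte replicate 2 there were 193, while the lower calls ranged from 24 without KIN microglia replicate 3 to 107 without WT astrocyte replicate 2. No gene of the 103 or the 49 changed sign in any setting run. How many of up to 23 settings, each library left out among them, kept the call is given below for genes where fewer than 15 did, and *Apoe*, *Axl*, *Csf1*, *Lpl*, *Xkrx*, *Arsb*, *Ppfia4*, *Ptk2b*, *Nrp1*, *Vmn2r59*, *Mapk8ip1*, *Pcsk1n*, *Atp9a*, *Ptgds*, *Sv2a*, *Ndrg1* and *Aatk* were called in 23 of 23.

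**Figure D1:**
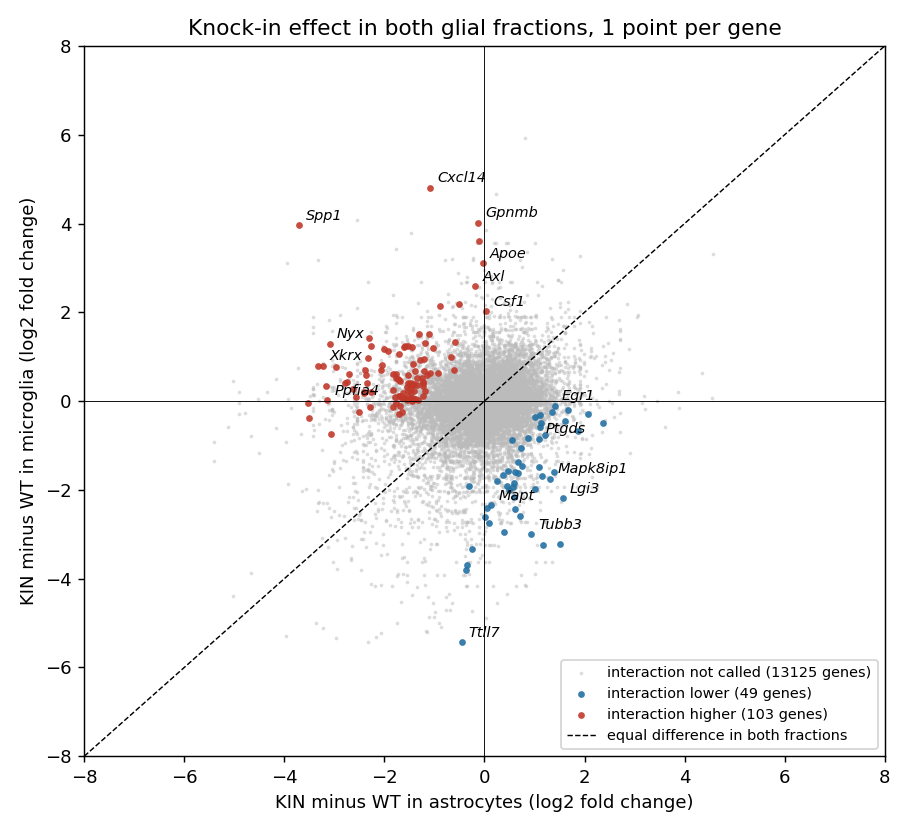
Each point is 1 of 13277 genes, placed by its log2 fold change of KIN against WT in astrocytes (horizontal axis) and in microglia (vertical axis), with the dashed line where both are equal. The 103 genes with a higher interaction (red) lie above the line, mostly left of zero near the horizontal axis, and the 49 with a lower interaction (blue) lie below it.

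The disease-associated microglia genes held several of the higher calls. Of 40 list genes 36 were tested, while *Atp6v0d2*, *Ch25h*, *Ctse* and *Mamdc2* were below the count limit. Of these 36, 7 were called higher, *Apoe*, *Axl*, *Csf1*, *Fam20c*, *Gpnmb*, *Lpl* and *Spp1*, and 0 lower with edgeR, where 18 were higher and 0 lower with unadjusted *p* up to 0.05 and DESeq2 called 4 higher and 0 lower. Of all genes tested 0.776% were called higher. The study names part of this list for these samples, so the list is not independent evidence of its direction. The median interaction of the list was 1.77 against -0.04 over all genes, and 34 of 36 values were above 0. With single libraries left out it was lowest at 1.30, without WT astrocyte replicate 1. Since 12 of the 36 genes were at the floor in both astrocyte groups, the median was also taken with groups at the floor set to it, and was then 1.06 against 0.00 over all genes.

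In KIN microglia 21 of the 36 genes were called higher and 0 lower with edgeR, where 0.829% of all genes were called higher. In 28 of the 36, all 3 KIN microglia libraries lay above all 3 WT libraries, and in 0 below, against 7.73% and 7.82% of all genes. Some of the 36, such as *Spp1* and *Cst7*, reached 5 reads in KIN microglia only. They were tested through that group, so for them this order was in part set by the count limit. In astrocytes *Timp2*, an inhibitor of matrix metalloproteases, was the single gene called higher and *Lpl* the single one called lower. Over all genes 1.97% and 5.23% were called there, and 12 of the 36 were at the floor in both astrocyte groups. The summed normalised level of the list was 1345, 2302 and 1313 CPM (reads scaled to a common library size) in WT microglia and 5285, 4079 and 4095 CPM in KIN microglia. In astrocytes the sum was 631, 980 and 652 CPM in WT and 803, 829 and 820 CPM in KIN. The microglia groups did not overlap, WT microglia replicate 2 was the highest WT library, and the astrocyte groups overlapped.

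*Apoe* (chr7:19430034-19434947, minus strand, mm39), the main lipid carrier of the brain, had the smallest adjusted *p* of all genes. Its counts were 1010, 1733 and 1158 in WT astrocytes and 1480, 836 and 1064 in KIN astrocytes, where the groups overlapped. In WT microglia the counts were 415, 519 and 277, and in KIN microglia 4346, 3839 and 3268. The level in astrocytes was 459 ± 139 CPM in WT and 448 ± 11.3 CPM in KIN (SD, n = 3), but in microglia it rose from 176 ± 85.1 to 1514 ± 320 CPM, above the level of either astrocyte group. The log2 fold change was 3.10 ± 0.29 (SE) in microglia and -0.03 ± 0.26 in astrocytes, and the interaction was 3.14 ± 0.38 (adjusted *p* = 1.2e-07).

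*Gpnmb* (chr6:49013426-49047863, plus strand) encodes a glycoprotein of lysosomes and the cell surface. It was rare in 3 of the 4 groups, with 3, 2 and 5 counts in WT astrocytes, 2, 2 and 4 in KIN astrocytes, and 5, 2 and 5 in WT microglia, against 90, 63 and 53 in KIN microglia. Each KIN microglia library thus exceeded all 9 others. The interaction was 4.14 ± 0.85 (SE, adjusted *p* = 0.0031) with a log2 fold change of 4.01 ± 0.36 in microglia, and it was not called with DESeq2 or without WT astrocyte replicate 3.

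*Spp1* (chr5:104582165-104589235, plus strand), the gene of the secreted protein osteopontin, had 27, 27 and 33 counts in KIN microglia but 1, 0 and 4 in WT microglia. Astrocytes had 0, 4 and 1 counts in WT and 0, 0 and 0 in KIN. The fitted interaction of 7.67 ± 1.67 (SE, adjusted *p* = 0.0067) was the highest of all called genes, but it rests in part on the 0 counts of KIN astrocytes. The change within microglia alone was 3.96 ± 0.53 on the log2 scale, without overlap of the groups. *Spp1* was not called with DESeq2 or without WT astrocyte replicate 2.

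*Axl* (chr7:25456535-25488329, minus strand), a receptor tyrosine kinase for the uptake of dying cells, had 17, 15 and 9 counts in WT microglia and 102, 81 and 76 in KIN microglia. Its astrocyte counts were 13, 30 and 25 in WT against 25, 12 and 16 in KIN, with overlap. The interaction was 2.77 ± 0.44 (SE, adjusted *p* = 7e-05). *Csf1* (chr3:107648364-107667806, minus strand) encodes the growth factor on which microglia depend. It had 40, 16 and 21 counts in WT microglia and 104, 94 and 125 in KIN microglia. The astrocyte fraction showed 14, 16 and 21 counts in WT and 19, 12 and 15 in KIN. With an interaction of 1.99 ± 0.42 (SE, adjusted *p* = 0.0044), its rise was also seen in the microglia libraries only, where the groups did not overlap.

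*Fam20c*, a kinase of secreted proteins, had 7, 7 and 5 counts in WT and 25, 31 and 36 in KIN microglia. In astrocytes it had 19, 21 and 24 counts in WT and 10, 11 and 18 in KIN. Its level was thus higher in WT astrocytes (7.5 CPM) than in WT microglia (2.72 CPM), with KIN microglia (12 CPM) above both, and the interaction was 2.69 ± 0.50 (SE, adjusted *p* = 0.00098). *Lpl*, the lipase that frees fatty acids from lipoproteins, changed in both fractions in opposite directions. Its counts in WT astrocytes were 31, 31 and 43, and in KIN astrocytes 18, 6 and 10. Microglia had 31, 15 and 27 counts in WT and 55, 64 and 58 in KIN. The groups overlapped in neither fraction: the log2 fold change was -1.45 ± 0.31 in astrocytes and 1.21 ± 0.26 in microglia, with an interaction of 2.66 ± 0.41 (SE, adjusted *p* = 4.3e-05).

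**Figure D2:**
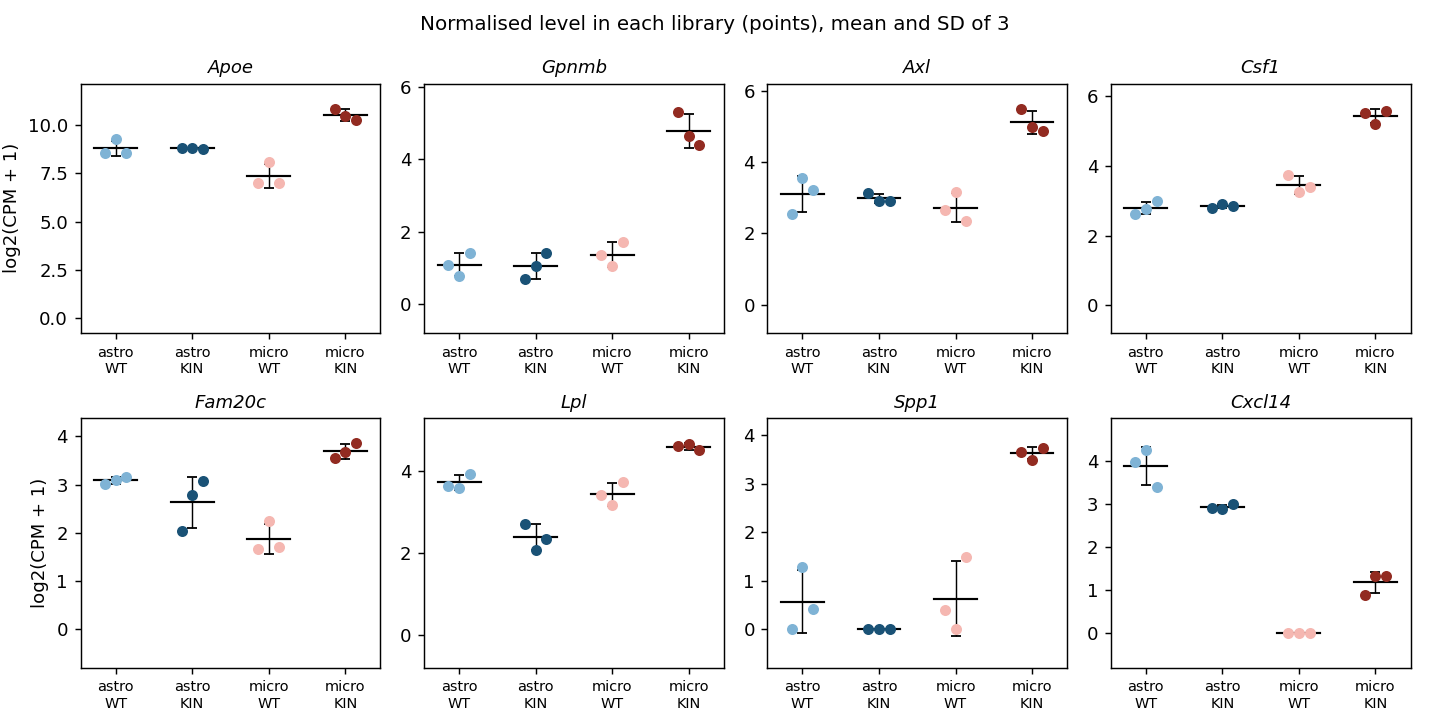
Level of 8 genes with a higher interaction in each library (points), as log2(CPM + 1), with the mean and SD of 3 libraries per group; axes differ between genes. KIN microglia lie above all other libraries for *Apoe*, *Gpnmb*, *Axl*, *Csf1*, *Fam20c*, *Lpl* and *Spp1*, whereas *Cxcl14* is highest in WT astrocytes and has 0 counts in WT microglia.

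The other 14 list genes that rose in KIN microglia had interactions that missed the threshold. *Cst7*, an inhibitor of lysosomal proteases, had 1, 4 and 2 counts in WT microglia and 68, 23 and 38 in KIN microglia, but at most 1 in any astrocyte library, and its interaction of 6.63 ± 2.23 had an adjusted *p* of 0.13. *Itgax*, the integrin chain CD11c, had 6, 2 and 4 counts in WT and 43, 50 and 45 in KIN microglia, and an interaction of 5.20 ± 2.34 (adjusted *p* = 0.32). For both genes the astrocyte libraries held too few counts to measure an astrocyte effect, so the missing call does not show that the fractions responded alike. *Clec7a*, the receptor dectin-1, gave 3.15 ± 1.35 (adjusted *p* = 0.28) for the same kind of counts. By contrast, *Timp2* was measured well in both fractions and rose in both, by 1.41 in astrocytes and 1.01 in microglia, with an interaction of -0.40 ± 0.38 (SE, adjusted *p* = 0.72). *Trem2*, the receptor on which much of the program depends, had an interaction of 0.32 ± 1.34 (adjusted *p* = 0.96) and a log2 fold change of 0.47 in microglia that was not called (adjusted *p* = 0.42). The number of list genes with a called interaction was between 6 and 9 when each library was left out in turn, and the number called higher in microglia between 17 and 29, the highest without WT microglia replicate 2.

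To show the start sites of genes that rose together, the 250 bases before the annotated start were taken from RefSeq (GRCm38.p6) for the 4 called disease-associated genes that had a single start there, out of 6 of the 7 found in the table. Capitals mark CG pairs, the sites of DNA methylation. The windows are *Axl* at chr7:25788734-25788983 (minus strand), *Fam20c* at chr5:138754831-138755080 (plus strand), *Gpnmb* at chr6:49036268-49036517 (plus strand) and *Csf1* at chr3:107760470-107760719 (minus strand), in coordinates of that build.
Axl: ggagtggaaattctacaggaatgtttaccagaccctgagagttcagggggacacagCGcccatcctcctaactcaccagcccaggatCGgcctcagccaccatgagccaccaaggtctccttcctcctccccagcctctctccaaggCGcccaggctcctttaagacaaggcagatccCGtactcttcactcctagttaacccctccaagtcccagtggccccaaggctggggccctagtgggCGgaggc
Fam20c: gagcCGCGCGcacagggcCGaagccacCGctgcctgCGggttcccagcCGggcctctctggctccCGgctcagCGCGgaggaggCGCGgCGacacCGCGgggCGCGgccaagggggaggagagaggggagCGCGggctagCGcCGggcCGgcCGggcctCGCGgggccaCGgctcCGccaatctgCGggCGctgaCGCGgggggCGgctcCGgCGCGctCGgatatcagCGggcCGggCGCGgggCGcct
Gpnmb: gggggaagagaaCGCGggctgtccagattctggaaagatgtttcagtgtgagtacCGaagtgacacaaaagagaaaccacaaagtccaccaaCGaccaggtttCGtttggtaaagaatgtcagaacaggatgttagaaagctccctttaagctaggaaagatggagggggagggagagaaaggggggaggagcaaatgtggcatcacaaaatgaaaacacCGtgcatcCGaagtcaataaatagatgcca
Csf1: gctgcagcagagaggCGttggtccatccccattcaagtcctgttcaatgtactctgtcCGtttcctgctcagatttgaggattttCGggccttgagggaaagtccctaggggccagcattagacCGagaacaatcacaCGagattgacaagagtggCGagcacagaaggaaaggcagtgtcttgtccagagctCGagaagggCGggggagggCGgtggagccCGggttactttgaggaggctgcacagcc

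The 4 windows differ widely in base composition. *Fam20c* has 41 CG pairs at 81.2% G and C, a dense CG island, against 5 pairs and 60% in *Axl*, 7 and 47.2% in *Gpnmb*, and 10 and 56.4% in *Csf1*, where the medians over 32851 promoter windows were 6 pairs and 52.4%. On both strands, none of the 4 windows held CACGTG (in 6.02% of all windows), TCACATG (3.5%), TGACTCA (4.46%) or GGAAGT (19.7%), letters bound by MITF and TFE factors, AP-1 and PU.1. A missing match says only that these letters are not in these windows.

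Among the other lists of immune genes, cytokines and chemokines held 2 genes called higher of 30 tested (0.776% of all genes were), *Cxcl14* and *Csf1*, the latter also counted among the disease-associated genes, and a median interaction of 0.87. *Cxcl14* (chr13:56436352-56444603, minus strand), a chemokine, had 40, 51 and 29 counts in WT astrocytes and 21, 12 and 17 in KIN astrocytes. It had 0 counts in every WT microglia library and 2, 4 and 4 in KIN microglia. KIN was below WT in astrocytes and above it in microglia without overlap in either fraction, and the interaction was 5.89 ± 1.30 (SE, adjusted *p* = 0.0079). The microglia side rests on 10 counts in all, and *Cxcl14* was not called with DESeq2. Border macrophage genes had interactions above 0 in 9 of 9 and complement genes in 14 of 17, against 6451 of 13277 over all genes. No member of either list was called by edgeR, and with unadjusted *p* up to 0.05, 1 and 2 were higher. In both astrocyte groups 3 of the 9 and 8 of the 17 were at the floor. The medians were 1.36 and 0.70, or 0.74 and 0.63 with groups at the floor set to it. Homeostatic microglia genes, which include *P2ry12*, *Tmem119* and *Cx3cr1*, had no call among 25 with edgeR (4 higher and 2 lower with unadjusted *p* up to 0.05) and a median of -0.28, or 0.20 without both deviating libraries.

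Immune receptors and adhesion molecules outside the lists were also among the higher calls; they were chosen for description after their values were seen. *Lag3*, an inhibitory immune receptor, had 90, 104 and 47 counts in WT microglia and 228, 201 and 187 in KIN microglia, with at most 9 in any astrocyte library, and an interaction of 2.77 ± 0.75 (SE, adjusted *p* = 0.041, called in 13 of 23 settings). *Sdc4* and *Sdc3*, heparan sulfate proteoglycans of the cell surface, had interactions of 1.93 ± 0.47 and 1.66 ± 0.39 (adjusted *p* = 0.019 and 0.012). *Sdc4* was called higher in microglia (log2 1.34 ± 0.39) but *Sdc3* was not (0.99 ± 0.30). For other genes of the kind the called change was the fall in the astrocyte fraction. *Fcgr2b*, the inhibitory Fc receptor, had 17, 16 and 27 counts in WT and 10, 3 and 4 in KIN astrocytes, and 18 to 64 and 37 to 55 counts in WT and KIN microglia (interaction 1.81 ± 0.48, adjusted *p* = 0.041, called in 13 of 23 settings). *Ly86*, a partner of a receptor related to the lipopolysaccharide receptor, had 11, 5 and 10 counts in WT and 0, 1 and 2 in KIN astrocytes, while microglia had 66, 58 and 47 in WT against 71, 94 and 76 in KIN. Its astrocyte counts were at least 2.43-fold lower in KIN, and the interaction was 3.19 ± 0.72 (SE, adjusted *p* = 0.01). *Ptk2b*, a kinase of integrin signalling, went from 20, 10 and 25 to 4, 0 and 3 counts in astrocytes and from 52, 38 and 36 to 60, 58 and 60 in microglia (interaction 3.16 ± 0.56, adjusted *p* = 0.00058). *Nrp1*, a receptor for semaphorins, went from 11, 16 and 12 to 4, 1 and 3 counts in astrocytes and from 32, 24 and 31 to 47, 55 and 47 in microglia (2.76 ± 0.55, adjusted *p* = 0.0024). *Pdgfb* had 57 to 117 counts in the microglia libraries of both genotypes, and 8, 6 and 8 in WT against 2, 0 and 1 in KIN astrocytes (2.65 ± 0.72, adjusted *p* = 0.046, called in 11 of 23 settings). *Cd274*, the ligand PD-L1, shares its span with *Plgrkt*, and its interaction was 2.84 ± 0.60 (adjusted *p* = 0.0045).

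*Fcgr2b*, *Ly86*, *Ptk2b*, *Nrp1* and *Pdgfb* are each higher in microglia than in astrocytes, and 30 of the 103 genes with a higher interaction had an at least 2-fold higher level in microglia, against 12.2% of all genes. The summed level of 25 homeostatic microglia genes in the astrocyte libraries was 372, 543 and 378 CPM in WT and 295, 278 and 300 CPM in KIN, without overlap. *Cst3*, cystatin C, which astrocytes also express, made up 44.7% to 69.1% of that sum, and without it the sums overlapped, at 142, 168 and 143 CPM in WT and 154, 154 and 152 CPM in KIN. The median level of the members was 1.86, 1.07 and 1.98 CPM in WT and 0.62, 1.07 and 1.64 CPM in KIN, with overlap, 10 of the 25 were at the floor in both astrocyte groups, and 3 were called lower there (5.23% of all genes were). *Itgam*, which encodes the CD11b bound by the first beads, was called lower in KIN astrocytes (7, 2 and 9 counts in WT, 1, 0 and 1 in KIN) but not in microglia, where it had 30 to 61 counts in WT and 37 to 54 in KIN. Its interaction of 2.80 ± 0.84 had an adjusted *p* of 0.075. In both astrocyte groups, however, *Tmem119* and *P2ry12* had at most 1 count per library. The part of these cells in the result was not tested.

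The largest group of higher calls was not glial by its names. Of the 103 genes 25, or 24.3%, were olfactory or vomeronasal receptor genes, large families of chemosensory receptors whose best known sites are the nose and the vomeronasal organ, while such genes made up 3.59% of the genes tested. This list was drawn up after the values were seen. Of the 1508 listed genes 476 were tested, with 25 called higher (5.25% of them, against 0.776% of all genes) and 0 lower by edgeR (6 lower with unadjusted *p* up to 0.05, 14 higher by DESeq2, and 56 higher with the mouse as a block). Their median interaction was 1.06, or 0.88 with groups at the floor set to it, and 414 of 476 values were above 0. In astrocytes 132 of the 476 were called lower (27.7%, against 5.23% of all genes) and 2 higher (1.97% of all genes were). In microglia 2 were called lower and 0 higher (1.32% and 0.829% of all genes were).

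Among the receptor genes, *Or2y16* and *Or6c203* belonged to the 20 genes with the highest counts, with 222848 and 103741 over the 12 libraries. The median level of the tested receptor genes was low. It was 3.71, 2.86 and 3.64 CPM in WT astrocytes and 1.86, 1.61 and 1.64 CPM in KIN astrocytes, without overlap. In microglia it was 3.42, 2.65 and 4.53 CPM in WT and 3.85, 3.23 and 3.75 CPM in KIN, so KIN astrocytes stood below the other 3 groups. For 234 of 476 genes all KIN astrocyte libraries lay below all WT astrocyte libraries (13.6% of all genes did), and for 20 of 476 all KIN microglia libraries lay below WT (7.82% of all genes). Traits of the astrocyte libraries split in the same way: 17524, 17217 and 17876 genes had a read in WT and 16950, 15078 and 16116 in KIN, and the scaling factors were 1.26, 1.22 and 1.43 in WT and 1.14, 0.753 and 0.977 in KIN. Their part in the result was not tested.

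**Figure D3:**
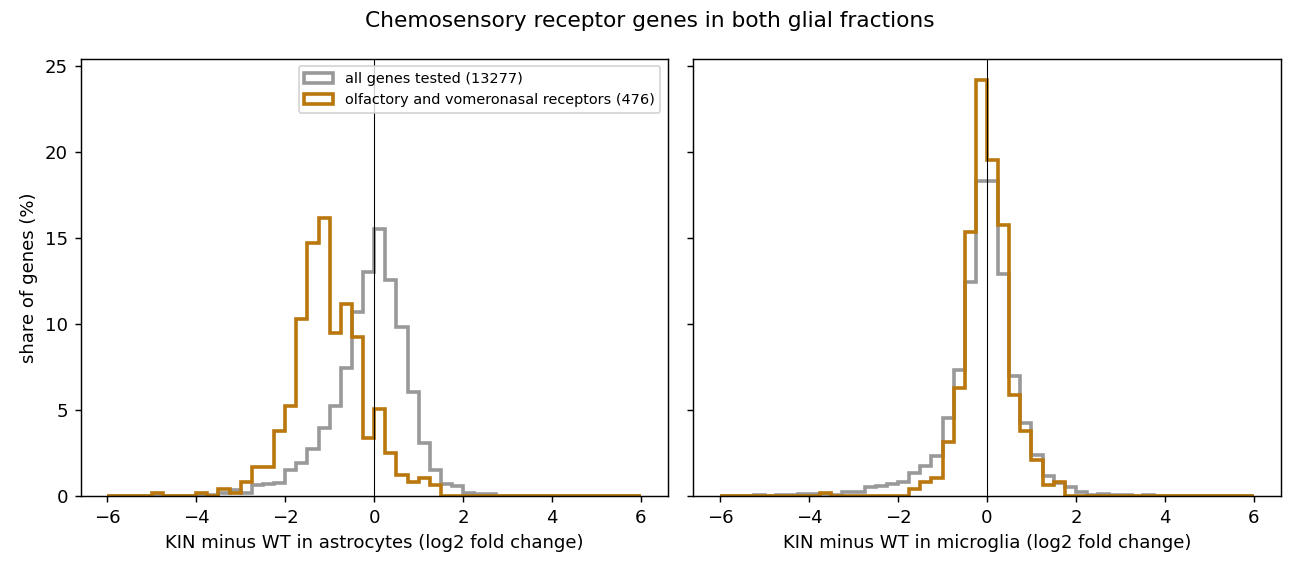
Share of genes (%) by log2 fold change of KIN against WT in astrocytes (left) and microglia (right), for 476 olfactory and vomeronasal receptor genes (orange) and all 13277 genes tested (grey). The receptor genes are shifted to the left in astrocytes, with a median of -1.08, and lie around zero in microglia, with a median of -0.02.

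The vomeronasal receptor gene *Vmn2r114* had the highest counts among the receptor genes described by library, with 173, 140 and 199 in WT against 71, 23 and 50 in KIN astrocytes. In microglia it had 186, 153 and 249 counts in WT and 200, 173 and 216 in KIN. The log2 fold change was -1.69 ± 0.26 in astrocytes and -0.11 ± 0.24 in microglia, and the interaction 1.57 ± 0.35 (SE, adjusted *p* = 0.0089). *Vmn2r59* had 96, 91 and 134 counts in WT and 53, 18 and 36 in KIN astrocytes. Its microglia counts were 111, 53 and 107 in WT against 122, 109 and 134 in KIN, and the interaction was 1.80 ± 0.35 (adjusted *p* = 0.002). In both genes the astrocyte groups were apart and the microglia groups overlapped.

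*Vmn1r65* had 17, 12 and 12 counts in WT and 6, 0 and 1 in KIN astrocytes, with 9, 8 and 10 in WT against 18, 21 and 17 in KIN microglia (interaction 3.30 ± 0.66, adjusted *p* = 0.0024). *Or6b2b* had 9, 12 and 11 counts in WT and 2, 1 and 1 in KIN astrocytes, at least 2.99-fold lower. Its microglia counts were 6, 2 and 5 in WT against 5, 6 and 10 in KIN, with an interaction of 3.33 ± 0.83 (adjusted *p* = 0.024, called in 14 of 22 settings). For *Or10ab4* the counts fell from 46, 13 and 40 to 2, 6 and 8 in astrocytes and were 22, 11 and 18 in WT against 22, 14 and 25 in KIN microglia (2.60 ± 0.56, adjusted *p* = 0.0059). Members of these families resemble each other in sequence, so the assignment of reads to single members is uncertain. Of the calls for the list, 4 were left without KIN astrocyte replicate 2, 6 without WT astrocyte replicate 3, 7 without KIN microglia replicate 3 and 7 without both deviating libraries, and 45 were made without WT astrocyte replicate 2, while the median stayed between 0.86 and 1.26.

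Several single genes showed the same pattern of a fall in KIN astrocytes with unlike counts in microglia, and WT astrocyte replicate 2 was often the lowest WT library. *Xkrx* (chrX:133049789-133063747, minus strand), a membrane protein of the XK family whose gene span overlaps that of *Nox1*, had 689, 239 and 1346 counts in WT and 164, 19 and 48 in KIN astrocytes. In microglia it had 501, 72 and 307 counts in WT and 767, 352 and 330 in KIN, with overlap. The interaction was 4.03 ± 0.53 (SE, adjusted *p* = 1e-06), and the log2 fold change -3.23 ± 0.40 in astrocytes. *Arsb*, the lysosomal arylsulfatase B, had 258, 103 and 516 counts in WT and 103, 20 and 34 in KIN astrocytes. In microglia it had 225, 43 and 147 counts in WT and 304, 161 and 135 in KIN, and the interaction was 2.94 ± 0.48 (adjusted *p* = 0.00012). *Arsb* was the 1 called gene among 61 lysosomal genes tested, where 0.776% of all genes were called higher. The median interaction of the 61 was 0.26 (0.15 without WT microglia replicate 1).

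*Smarcad1*, a chromatin remodeller, had 101, 50 and 123 counts in WT and 46, 17 and 24 in KIN astrocytes, with 17 to 54 in WT and 31 to 72 in KIN microglia (1.88 ± 0.42, adjusted *p* = 0.0089). *Mid1*, a ubiquitin ligase at the X chromosome whose span overlaps other genes, differed strongly among libraries of 1 group, with 194, 21 and 49 counts in KIN astrocytes (2.14 ± 0.41, adjusted *p* = 0.0015). *Sqor*, a mitochondrial enzyme of sulfide oxidation, had 47, 18 and 37 counts in WT and 5, 6 and 7 in KIN astrocytes, with overlap of the microglia groups (2.16 ± 0.50, adjusted *p* = 0.012). *Fdft1*, squalene synthase of cholesterol synthesis, was the 1 called gene of 25 in that pathway (0.776% of all genes were called higher). It had 24, 37 and 35 counts in WT and 15, 8 and 15 in KIN astrocytes with 14, 11 and 8 in WT against 18, 22 and 12 in KIN microglia (1.73 ± 0.47, adjusted *p* = 0.047, called in 9 of 23 settings), and its span overlaps that of *Ctsb*.

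Among the 15 highest interactions, the others had low counts. *Nyx*, which encodes nyctalopin of retinal synapses, had 11, 17 and 24 counts in WT and 0, 3 and 2 in KIN astrocytes, at least 4.8-fold lower. Its microglia counts were 11, 4 and 6 in WT against 18, 14 and 22 in KIN, also without overlap but in the other direction, and the interaction was 4.39 ± 0.69 (SE, adjusted *p* = 7e-05). *Serpini1*, the neuronal protease inhibitor neuroserpin, had 18, 3 and 17 counts in WT and 1, 0 and 2 in KIN astrocytes, with 7, 0 and 3 in WT against 5, 7 and 6 in KIN microglia (4.12 ± 0.99, adjusted *p* = 0.018). *Elovl5*, a fatty acid elongase, had 0, 1 and 0 counts in WT and 7, 4 and 6 in KIN microglia, which is at least 1.74-fold higher. It had 27, 23 and 20 counts in WT and 21, 13 and 23 in KIN astrocytes, with overlap, and an interaction of 3.73 ± 0.97 (adjusted *p* = 0.031, called in 14 of 23 settings).

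*Ryr1*, the calcium release channel of muscle, had 16, 7 and 15 counts in WT and 4, 0 and 0 in KIN astrocytes, and 4, 3 and 4 in WT against 8, 7 and 5 in KIN microglia (3.75 ± 0.89, adjusted *p* = 0.014). *Dok5*, an adaptor of receptor tyrosine kinases, had 11, 8 and 11 counts in WT and 2, 3 and 0 in KIN astrocytes, and 4, 0 and 4 in WT against 9, 5 and 9 in KIN microglia (3.75 ± 0.90, adjusted *p* = 0.017). *Cyyr1* had 6, 7 and 5 counts in WT and 1, 1 and 1 in KIN astrocytes, and 3, 4 and 2 in WT against 7, 11 and 5 in KIN microglia (3.52 ± 0.97, adjusted *p* = 0.048, called in 7 of 22 settings). For these genes a KIN count of 4 or less in every astrocyte library sets the size of the interaction. *Coro2a*, an actin-binding coronin, had 16, 12 and 16 counts in WT and 1, 0 and 3 in KIN astrocytes, and 15, 5 and 11 in WT against 15, 16 and 10 in KIN microglia (3.52 ± 0.72, adjusted *p* = 0.0031). *Celf6*, an RNA-binding splicing factor of neurons, had 16, 3 and 25 counts in WT and 0, 0 and 3 in KIN astrocytes, and 13, 4 and 6 in WT against 13, 8 and 2 in KIN microglia (3.50 ± 0.96, adjusted *p* = 0.047, called in 13 of 22 settings). In *Celf6* WT astrocyte replicate 2 reached into the range of the KIN libraries.

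Many neuronal and synaptic genes were called lower within each fraction, and 5 genes of the list were called in the interaction. Of 62 tested, 42 were called lower in KIN astrocytes (5.23% of all genes were) and 32 in KIN microglia (1.32%), with medians of -2.03 and -2.09. *Snap25*, a SNARE protein of synaptic vesicle release, fell by 2.52 on the log2 scale in astrocytes and by 2.22 in microglia, with an interaction of 0.30 ± 0.75 (SE, adjusted *p* = 0.92). The median interaction of the list was -0.08, and 0.28 with groups at the floor set to it, so its sign is not settled. Of the 62 genes 2 were called higher, *Kcnc1* and *Ppfia4* (0.776% of all genes were), and 3 lower, *Mapt*, *Sv2a* and *Tubb3* (0.369%). The summed level of the list moved with the WT libraries as well: it was 1270, 651 and 1141 CPM in WT astrocytes and 616, 264 and 595 CPM in WT microglia, lowest in replicate 2 of either fraction, against 494 to 511 CPM in KIN astrocytes and 203 to 231 CPM in KIN microglia. The part of neuronal RNA in the interaction of single genes was not tested.

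*Ppfia4*, a liprin scaffold protein, had 34, 12 and 27 counts in WT and 3, 1 and 3 in KIN astrocytes, at least 6.85-fold lower. It was more abundant in microglia and stood there at 61, 54 and 55 counts in WT and 73, 57 and 54 in KIN. The interaction was 3.17 ± 0.56 (SE, adjusted *p* = 0.00058). *Kcnc1*, a potassium channel of fast-spiking neurons whose span overlaps *Sergef*, had 70, 10 and 66 counts in WT and 5, 2 and 8 in KIN astrocytes, with 30, 11 and 24 in WT against 14, 19 and 7 in KIN microglia (2.33 ± 0.64, adjusted *p* = 0.048, called in 9 of 23 settings).

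*Tubb3*, a neuronal beta-tubulin, went the other way. It had 22, 17 and 32 counts in WT and 35, 28 and 55 in KIN astrocytes, while microglia had 18, 3 and 5 in WT against 0, 3 and 0 in KIN. The interaction was -3.94 ± 0.79 (SE, adjusted *p* = 0.0024), with a called fall in microglia. *Mapt*, the gene of the microtubule protein tau, had 101, 111 and 113 counts in WT and 148, 67 and 106 in KIN astrocytes, with overlap. In microglia it had 20, 4 and 12 counts in WT and 1, 3 and 3 in KIN, which is at least 3.89-fold lower, and the interaction was -2.48 ± 0.57 (adjusted *p* = 0.012). *Sv2a*, a synaptic vesicle protein whose span overlaps *Bola1*, had 55, 77 and 91 counts in WT and 190, 139 and 120 in KIN astrocytes, where it was called higher, with 33, 12 and 21 in WT against 9, 16 and 15 in KIN microglia (-1.98 ± 0.41, adjusted *p* = 0.0035). Of the 49 genes with a lower interaction 37 had an at least 2-fold higher level in astrocytes (15.7% of all genes did).

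*Mapk8ip1* (chr2:92214016-92231709, minus strand), a scaffold of JNK signalling and of axonal transport, was the only lower call that was also called in both fractions. It had 99, 131 and 109 counts in WT and 331, 176 and 246 in KIN astrocytes. In microglia the counts were 27, 7 and 13 in WT against 5, 8 and 1 in KIN. KIN lay above WT in astrocytes (39.9 ± 6.02 and 99.4 ± 4.29 CPM in WT and KIN, SD, n = 3) and below it in microglia, without overlap in either fraction. The log2 fold change was 1.32 ± 0.23 and -1.75 ± 0.45, and the interaction -3.07 ± 0.51 (SE, adjusted *p* = 0.00013). The span of *Mapk8ip1* overlaps that of *Frey1*.

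Genes of oligodendrocytes and myelin had a median interaction of -1.24, and -0.82 with groups at the floor set to it. Of 24 tested 20 were below 0, of which *Ptgds* and *Cnp* were called lower (0.369% of all genes were), and 0 were called higher by edgeR, with 0 higher and 8 lower with unadjusted *p* up to 0.05 and 0 higher by DESeq2. In astrocytes 6 of the 24 were called higher (1.97% of all genes were) and 1 lower (5.23%), and in microglia 0 in either direction (0.829% and 1.32%). With the mouse as a block 4 of the 24 had a lower interaction. The summed level was 909, 1432 and 955 CPM in WT and 1740, 1706 and 1818 CPM in KIN astrocytes, without overlap, but 120, 154 and 108 CPM in WT and 149, 131 and 115 CPM in KIN microglia. Of the 24 genes, 8 had KIN astrocyte levels all above WT (12.6% of all genes did) and 1 all below (13.6%), while the others overlapped. In microglia 0 were all above and 4 all below (7.73% and 7.82% of all genes). The medians were 0.38 in astrocytes and -0.64 in microglia, or 0.38 and 0 with groups at the floor set to it. The part of oligodendrocyte RNA in the result was not tested.

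*Ptgds* (chr2:25352795-25362601, minus strand), the prostaglandin D2 synthase of oligodendrocytes and meninges, had 336, 496 and 405 counts in WT and 883, 544 and 867 in KIN astrocytes. In microglia the counts were 32, 14 and 20 in WT against 8, 17 and 13 in KIN. Its level rose in astrocytes from 145 ± 28 to 307 ± 42.9 CPM (SD, n = 3), and the interaction was -1.92 ± 0.42 (SE, adjusted *p* = 0.0069). *Cnp* (chr11:100465730-100482936, plus strand), a phosphodiesterase of myelin whose span overlaps *Dnajc7*, had 290, 444 and 314 counts in WT and 864, 502 and 659 in KIN astrocytes, and 18, 12 and 21 in WT against 14, 14 and 10 in KIN microglia (-1.62 ± 0.43, adjusted *p* = 0.041, called in 14 of 23 settings). *Mbp*, myelin basic protein, did not pass, with an interaction of -1.39 ± 0.41 (adjusted *p* = 0.071), and it was called in neither fraction, at 123 ± 45.4 and 152 ± 4.49 CPM in WT and KIN astrocytes. *Apod*, a lipocalin, rose in astrocytes by 1.38 on the log2 scale, with an interaction of -1.36 ± 0.56 (adjusted *p* = 0.24).

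**Figure D4:**
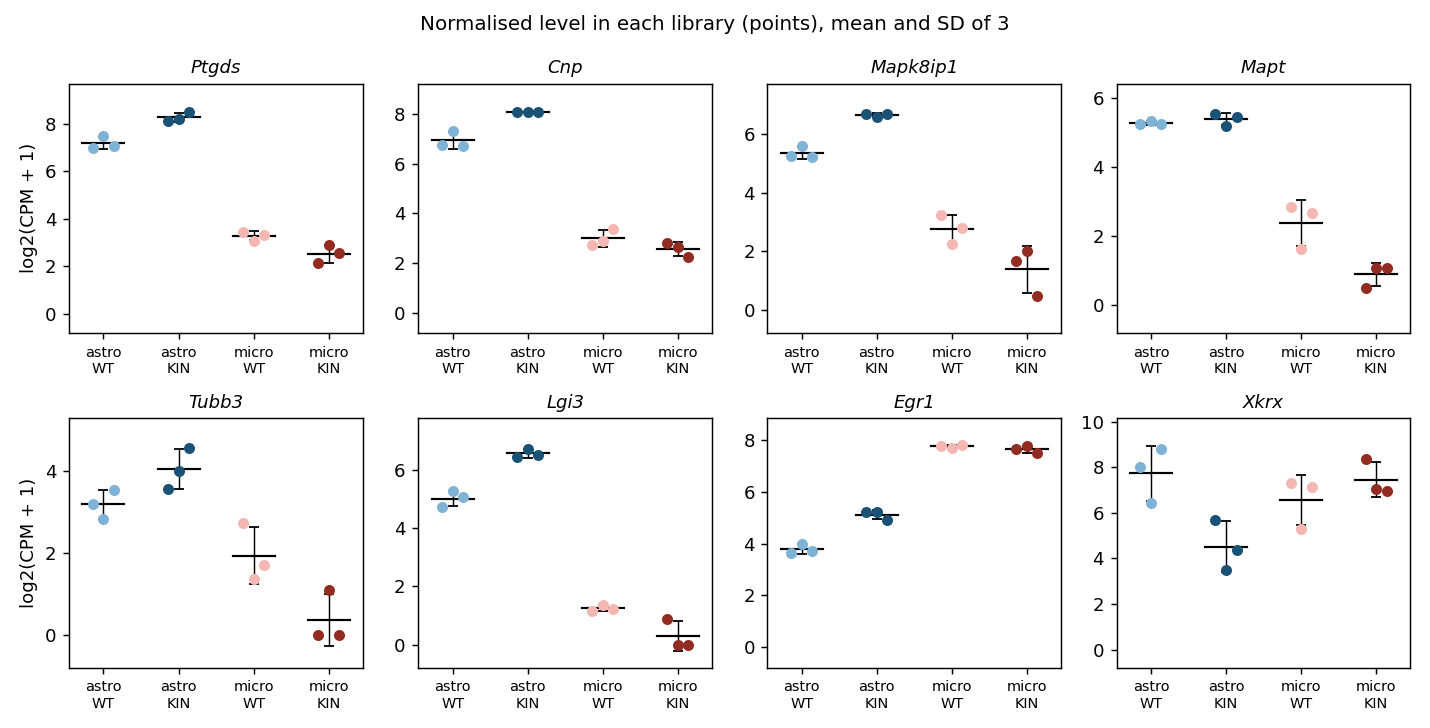
Level of 7 genes with a lower interaction and of *Xkrx*, with a higher one, in each library (points), as log2(CPM + 1), with the mean and SD of 3 libraries per group; axes differ between genes. *Ptgds*, *Cnp*, *Mapk8ip1*, *Lgi3* and *Egr1* are higher in KIN than in WT astrocytes, *Mapt* and *Tubb3* are lower in KIN than in WT microglia, and *Xkrx* has its lowest mean in KIN astrocytes.

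Among the other lowest interactions, some came with a rise in astrocytes. *Lgi3*, a secreted protein of the LGI family, had 69, 105 and 98 counts in WT and 280, 195 and 223 in KIN astrocytes, with 4, 3 and 3 in WT against 2, 0 and 0 in KIN microglia (-3.75 ± 0.91, adjusted *p* = 0.018). *Atp9a*, a lipid flippase of endosomes, had 54, 60 and 47 counts in WT and 169, 99 and 105 in KIN astrocytes, and 17, 3 and 10 in WT against 3, 2 and 5 in KIN microglia (-2.97 ± 0.56, adjusted *p* = 0.0011). *Crip2*, a LIM domain protein, had 20, 29 and 21 counts in WT and 44, 33 and 46 in KIN astrocytes, and 6, 3 and 7 in WT against 0, 2 and 2 in KIN microglia (-2.98 ± 0.75, adjusted *p* = 0.024). In these 3 genes the astrocyte groups did not overlap, and the fall in microglia was not called. *Rp2*, a GTPase-activating protein of ciliary transport, had 0, 2 and 2 counts in WT and 13, 2 and 5 in KIN astrocytes, and 25, 12 and 16 in WT against 10, 14 and 15 in KIN microglia (-2.86 ± 0.77, adjusted *p* = 0.041, called in 12 of 22 settings). *Lrrc10b* had 5, 3 and 5 counts in WT and 12, 11 and 10 in KIN astrocytes, and 8, 2 and 2 in WT against 0, 0 and 1 in KIN microglia (-4.73 ± 1.12, adjusted *p* = 0.014). *Bicc1*, an RNA-binding protein, had 7, 5 and 12 counts in WT and 19, 11 and 18 in KIN astrocytes, and 6, 3 and 3 in WT against 1, 0 and 0 in KIN microglia (-4.40 ± 1.04, adjusted *p* = 0.014). *Bicc1* was called in neither fraction alone.

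Others came with a fall in microglia, where the counts were low. *Ttll7*, an enzyme that adds glutamate chains to tubulin, had 25, 22 and 29 counts in WT and 24, 12 and 13 in KIN astrocytes, and 8, 1 and 6 in WT against 0, 0 and 0 in KIN microglia, which is at least 1.62-fold lower (-4.97 ± 1.28, adjusted *p* = 0.031, called in 13 of 23 settings). *Slc24a2*, a sodium-calcium-potassium exchanger of neurons, had 30, 21 and 22 counts in WT and 23, 10 and 17 in KIN astrocytes, and 23, 4 and 5 in WT against 1, 1 and 0 in KIN microglia, which is at least 3.25-fold lower (-3.42 ± 0.83, adjusted *p* = 0.019). *Nnat*, an imprinted neuronal gene whose span overlaps *Blcap*, had 127, 188 and 137 counts in WT and 144, 86 and 83 in KIN astrocytes, and 12, 4 and 13 in WT against 0, 0 and 2 in KIN microglia, which is at least 3.31-fold lower (-3.34 ± 0.79, adjusted *p* = 0.014). In all 3 genes the KIN microglia libraries lay below every WT microglia library. *Pcsk1n*, the inhibitor proSAAS of prohormone processing, had 42, 31 and 52 counts in WT and 73, 51 and 54 in KIN astrocytes, and 18, 3 and 16 in WT against 3, 1 and 2 in KIN microglia, which is at least 4.07-fold lower (-3.30 ± 0.61, adjusted *p* = 0.00098). Its span overlaps *Eras*.

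*Cacnb4*, a calcium channel subunit, had 10, 8 and 12 counts in WT and 16, 6 and 13 in KIN astrocytes, and 6, 3 and 8 in WT against 0, 1 and 1 in KIN microglia (-3.33 ± 0.91, adjusted *p* = 0.045, called in 9 of 22 settings). *Pex5l*, a regulator of pacemaker channels, had 35, 50 and 42 counts in WT and 40, 15 and 40 in KIN astrocytes, and 15, 1 and 7 in WT against 1, 1 and 0 in KIN microglia (-3.09 ± 0.85, adjusted *p* = 0.048, called in 11 of 23 settings). *Slc22a23*, a transporter-like membrane protein, had 19, 20 and 22 counts in WT and 46, 22 and 15 in KIN astrocytes, and 7, 1 and 9 in WT against 1, 2 and 0 in KIN microglia (-3.03 ± 0.83, adjusted *p* = 0.048, called in 10 of 23 settings). For all 3, WT microglia replicate 2 was the WT library with the fewest counts. Further genes of neurons and oligodendrocytes that were chosen after their values were seen fell in microglia in the same manner. *Cpe*, the carboxypeptidase of peptide hormones, had 20, 9 and 14 counts in WT and 2, 4 and 1 in KIN microglia (-2.62 ± 0.56, adjusted *p* = 0.005). *Ndrg1*, a stress-response protein of myelinating cells, had 14, 5 and 13 counts in WT and 2, 3 and 3 in KIN microglia (-2.50 ± 0.57, adjusted *p* = 0.01). *Aatk*, a kinase of the brain, had 37, 9 and 25 counts in WT and 4, 9 and 6 in KIN microglia (-2.36 ± 0.45, adjusted *p* = 0.0018).

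Each of the following genes with lower calls was the 1 lower call of its list or belonged to no list. *Egr1*, an immediate-early transcription factor, had 31, 42 and 37 counts in WT and 119, 68 and 71 in KIN astrocytes, without overlap, but 701, 390 and 499 in WT against 469, 582 and 488 in KIN microglia, with overlap. Its interaction of -1.51 ± 0.35 (SE, adjusted *p* = 0.011) was the 1 call among 28 immediate-early genes (0.369% of all genes were called lower). *H2bc27*, a histone H2B gene, had 11, 8 and 14 counts in WT and 49, 28 and 31 in KIN astrocytes, with 6, 5 and 3 in WT against 3, 4 and 2 in KIN microglia (-2.56 ± 0.68, adjusted *p* = 0.039, called in 11 of 23 settings). It was the 1 call among 71 histone genes, where 0.369% of all genes were called lower. The median of the 71 was -0.78 (-0.45 without WT microglia replicate 2), with 57 of 71 values at or below 0. *Top2a*, the topoisomerase of dividing cells, had 58, 78 and 79 counts in WT and 113, 120 and 131 in KIN astrocytes, and 54 to 74 in the microglia libraries (-1.36 ± 0.35, adjusted *p* = 0.028). *Marcksl1*, an actin regulator, also rose in astrocytes, where it had 12, 4 and 5 counts in WT and 29, 24 and 25 in KIN, and its interaction was -2.35 ± 0.47 (adjusted *p* = 0.0027). *Notch3*, a receptor of pericytes and vascular muscle, was the 1 call among 9 genes of these cells (0.369% of all genes were called lower). It had 26 to 34 counts in WT and 19 to 37 in KIN astrocytes and 13, 2 and 13 in WT against 2, 1 and 1 in KIN microglia (-2.85 ± 0.69, adjusted *p* = 0.019).

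Of 34 astrocyte identity genes 16 were called lower in KIN astrocytes (5.23% of all genes) and 6 in KIN microglia (1.32%). With edgeR 0 had a called interaction in either direction, where 3 were higher and 3 lower with unadjusted *p* up to 0.05. Over all genes 0.776% were called higher and 0.369% lower, so 0 of 34 does not show equal effects. The median interaction was -0.11, and 0.58 with groups at the floor set to it. *Slc1a2*, the main glutamate transporter, had 587, 936 and 645 counts in WT and 297, 186 and 270 in KIN astrocytes, and 36, 13 and 26 in WT against 5, 4 and 3 in KIN microglia. It fell in both fractions without overlap, by 1.34 and by 2.65 on the log2 scale, and the interaction of -1.31 ± 0.50 had an adjusted *p* of 0.20. The gene of the list nearest to a call was *Etnppl*, an enzyme of phosphoethanolamine breakdown, with 13, 36 and 23 counts in WT and 3, 2 and 1 in KIN astrocytes and at most 2 in any microglia library (adjusted *p* = 0.064).

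**Figure D5:**
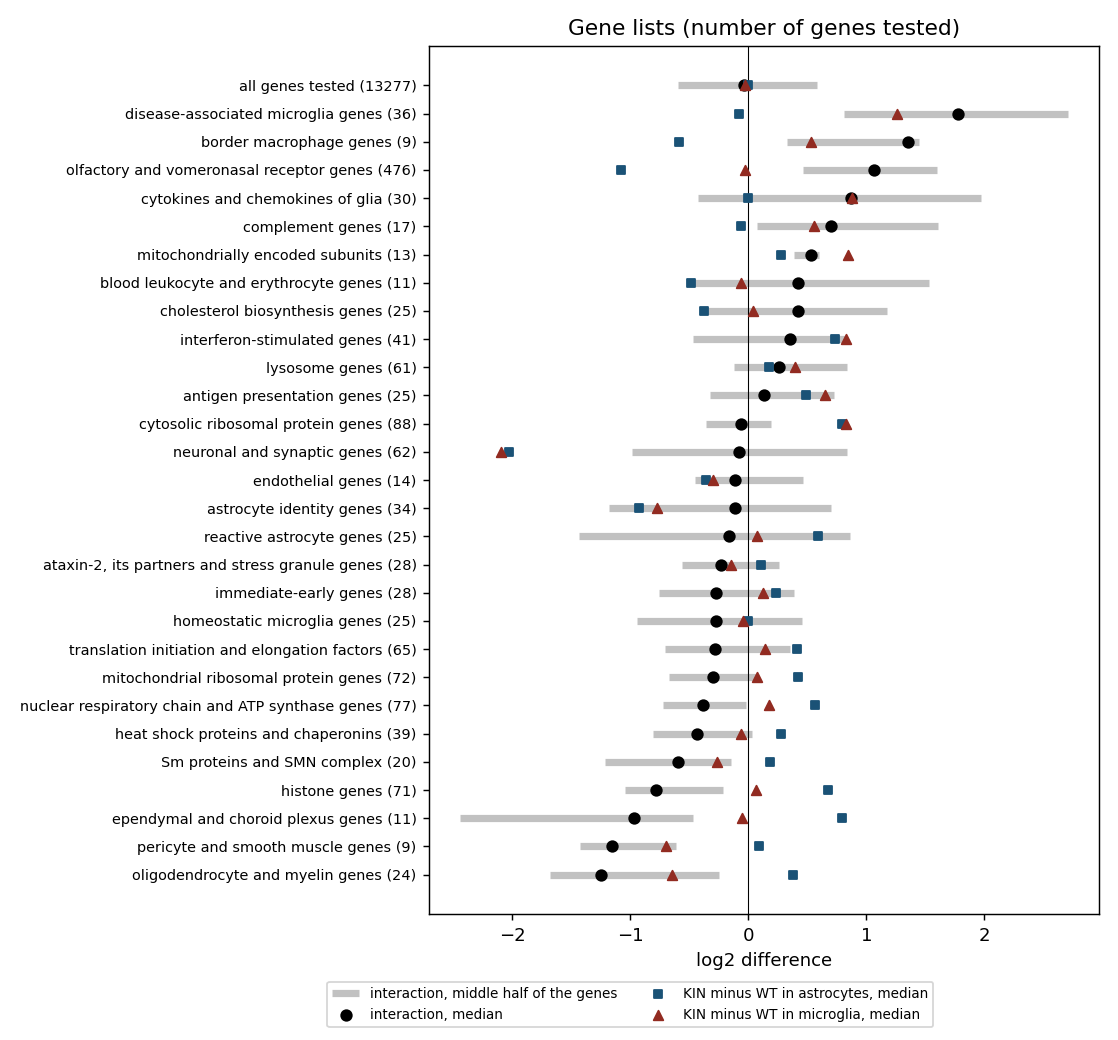
Median log2 value of each gene list (number of genes tested in brackets): the interaction (black points, with grey bars over the middle 50% of genes), and KIN minus WT in astrocytes (blue squares) and in microglia (red triangles). Disease-associated microglia genes have a median interaction of 1.77 and oligodendrocyte and myelin genes one of -1.24, and leaving out 1 library can change the order of the lists, while neuronal genes are low in both fractions with an interaction near zero.

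Neither ribosomal protein genes nor interferon-stimulated genes had a called interaction with edgeR. Cytosolic ribosomal protein genes had medians of 0.79 in astrocytes and 0.83 in microglia, with 14 and 23 of 88 called higher (1.97% and 0.829% of all genes), and a median interaction of -0.06, or 0.26 without both deviating libraries. Interferon-stimulated genes, which are induced in antiviral and inflammatory states, had medians of 0.73 and 0.83, with 6 and 8 of 41 called higher and an interaction of 0.35, or 0.06 without KIN microglia replicate 1, the lowest value with 1 library left out. In 18 of these 41 genes a group was at the floor, and with such groups set to it the medians were 0.13 in astrocytes and 0.82 in microglia, and that of the interaction 0.69. With unadjusted *p* up to 0.05 the 2 lists had 1 higher and 4 lower, and 1 higher and 2 lower. A difference that misses the threshold does not show equal effects, and the median standard error of 0.67 over all genes limits what 3 libraries per group can resolve.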

How the data were processed

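Per the study's methods, microglia (CD11b) and astrocytes (ACSA-2) were isolated in sequence from 10-month-old mouse brains, and total RNA was sequenced after ribosomal RNA depletion and polyadenylation, with unique molecular identifiers. The submitters' processing notes name cutadapt 4.6, Bowtie2 2.4.4, HTSeq 2.0.2 and the genome build mm39. The authors deposited whole-number counts per transcript, without normalization and counted without strand. The deposited log2 fold changes, standard errors and *p*-values of the authors' DESeq2 comparisons were not used, and neither were 36 columns that, by their headers, hold the same 18 libraries on 2 other scales.

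Here, the counts of 116873 transcripts were summed under 35823 symbols, with 137 entries without a symbol kept by identifier (0.0222% of counts). Genes with at least 5 reads in at least 2 of 12 libraries were fitted with edgeR 4.0.16 (R 4.3.3, TMM scaling, 4 group means, quasi-likelihood test), and Benjamini-Hochberg adjustment ran over all 13277 genes. Calls needed an adjusted *p* up to 0.05 and a log2 value of 1 or more in size. The prior count of log2 values was 0.125, and their standard errors were taken from the F statistic. CPM were computed with the TMM factors. A group with at most 3 counts in every library was taken as at the floor, and a fold against it was computed against 3 counts per library and given as a lower bound. Sums over lists leave out the 20 genes with the highest counts. The test was tried on simulated counts first.

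The members and gene lists were chosen with earlier results of these data known. Named genes were the 15 highest and 15 lowest called interactions, called list genes, the 2 genes with the smallest *p* in each list, *Atxn2*, list genes that the study names, and 29 called genes chosen after their values were seen. Some genes are not reported here, but totals include them. Both fractions were taken from the same brain, but labels do not say whether libraries of 1 number share a mouse, so the fit treats the 12 libraries as independent, and a block for the mouse, assuming shared numbers, was an alternative; *p*-values measure the spread between these libraries. Each group had 3 libraries, and intervals and floors cover counting error and this spread only. Gene spans that overlap were read from GENCODE. Alternatives were DESeq2 1.42.0, other scalings and filters, all 18 libraries, transcripts, replicate blocks and each library left out.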

Additional observations from a re-analysis of the deposited data

Results flagged for a closer look

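The effect of the knock-in differed between microglia and astrocytes by a test of the difference itself for 103 genes in the higher and 49 in the lower direction, and each gene named here is 1 of these. All values are the interaction on the log2 scale, KIN minus WT in microglia minus KIN minus WT in astrocytes.

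Genes of the disease-associated microglia list were at 7.67 (*Spp1*), 4.14 (*Gpnmb*), 3.14 (*Apoe*), 2.77 (*Axl*), 2.69 (*Fam20c*), 2.66 (*Lpl*) and 1.99 (*Csf1*). Other immune and surface genes were at 5.89 (*Cxcl14*), 3.19 (*Ly86*), 3.16 (*Ptk2b*), 2.84 (*Cd274*), 2.77 (*Lag3*), 2.76 (*Nrp1*), 2.65 (*Pdgfb*), 1.93 (*Sdc4*), 1.81 (*Fcgr2b*) and 1.66 (*Sdc3*). Chemosensory receptor genes were at 3.33 (*Or6b2b*), 3.30 (*Vmn1r65*), 2.60 (*Or10ab4*), 1.80 (*Vmn2r59*) and 1.57 (*Vmn2r114*). Metabolic and lysosomal enzymes were at 3.73 (*Elovl5*), 2.94 (*Arsb*), 2.16 (*Sqor*) and 1.73 (*Fdft1*). Further higher values were 4.39 (*Nyx*), 4.12 (*Serpini1*), 4.03 (*Xkrx*), 3.75 (*Ryr1*), 3.75 (*Dok5*), 3.52 (*Cyyr1*), 3.52 (*Coro2a*), 3.50 (*Celf6*), 3.17 (*Ppfia4*), 2.33 (*Kcnc1*), 2.14 (*Mid1*) and 1.88 (*Smarcad1*).

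Among lower values, neuronal genes and genes of the cytoskeleton were at -4.97 (*Ttll7*), -3.94 (*Tubb3*), -3.42 (*Slc24a2*), -3.34 (*Nnat*), -3.33 (*Cacnb4*), -3.30 (*Pcsk1n*), -3.09 (*Pex5l*), -3.07 (*Mapk8ip1*), -2.62 (*Cpe*), -2.48 (*Mapt*), -2.36 (*Aatk*), -2.35 (*Marcksl1*), -2.21 (*Tubb4a*), -2.04 (*Aplp1*) and -1.98 (*Sv2a*). Genes of oligodendrocytes, myelin and vessels were at -2.85 (*Notch3*), -2.50 (*Ndrg1*), -1.92 (*Ptgds*) and -1.62 (*Cnp*). Genes of chromatin and transcription were at -2.56 (*Hdac11*), -2.56 (*H2bc27*), -1.51 (*Egr1*) and -1.36 (*Top2a*). The remaining ones were -4.73 (*Lrrc10b*), -4.40 (*Bicc1*), -3.75 (*Lgi3*), -3.03 (*Slc22a23*), -2.98 (*Crip2*), -2.97 (*Atp9a*) and -2.86 (*Rp2*).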

How the results depend on the processing

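No called gene changed direction in the settings run, but 32 of 199 named genes, none of them called, changed sign in at least 1. The median interactions of 6 of 28 lists changed sign in at least 1 of 17 settings, and ranged from -0.38 to 0.20 for homeostatic microglia, -0.32 to 0.04 for astrocyte identity, -0.36 to 0.14 for neuronal, -0.25 to 0.20 for endothelial, -0.11 to 0.60 for antigen presentation and -0.26 to 0.26 for cytosolic ribosomal protein genes. DESeq2 called 52 genes higher in the interaction, 119 higher and 311 lower in astrocytes, and 47 higher and 63 lower in microglia. With a replicate block for the mouse, the interaction gave 234 higher and 124 lower calls, and with a replicate block for the number 179 and 87. Deviations of same-numbered libraries correlated at 0.08, 0.25 and 0.15 in WT and at -0.04, 0.02 and 0.03 in KIN. Differently numbered ones correlated at -0.20 to 0.10 in WT and at -0.07 to 0.05 in KIN. In WT number 1, the pair with number 3 was at 0.10 too, so the data did not settle whether a number marks 1 mouse. With the mouse block, 18 named genes gained and 0 lost their call. On their own, the 6 microglia libraries gave 85 lower calls. Without WT microglia replicate 2 and KIN astrocyte replicate 2 together, chosen after seeing the data, the interaction had 62 higher and 74 lower calls and microglia 247 and 271.

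When single libraries were left out, the interaction had 39 to 193 higher and 24 to 107 lower calls, astrocytes 120 to 439 and 344 to 852, and microglia 40 to 248 and 58 to 272. Interaction calls moved by over 1.5 times without WT astrocyte replicate 1 (60 higher, 31 lower), 2 (193, 107) or 3 (41, 28), KIN astrocyte replicate 2 (39 higher) or 3 (64 higher), WT microglia replicate 1 (30 lower) or 2 (85 lower), and KIN microglia replicate 1 (32 lower), 2 (30 lower) or 3 (49, 24). The cause was not tested. Of 2382 values of named genes with 1 library left out, 215 lost and 31 gained their call, and of 2147 under other settings 69 and 33. Genes with few counts limit the result, since 27.1% of all genes tested had a group at the floor.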

Other observations

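The median interactions of the genes encoded in mitochondria and of the nuclear genes of the same respiratory chain had opposite signs, a difference that was not tested. The 13 mitochondrially encoded subunits all had interactions above 0, with a median of 0.53 (0.33 without KIN astrocyte replicate 1, 0.34 without WT microglia replicate 1), and medians of 0.28 in astrocytes and 0.84 in microglia, where 2 were called higher (0.829% of all genes were). The 77 nuclear genes of the respiratory chain and ATP synthase tested had a median interaction of -0.39, with 17 above 0, and medians of 0.57 in astrocytes and 0.18 in microglia, where 10 (1.97% of all genes were) and 1 were called higher. With edgeR 0 genes of either list had a called interaction, with DESeq2 0 too, and with unadjusted *p* up to 0.05, 2 of the mitochondrially encoded genes were higher, and 1 of the nuclear genes was higher and 10 lower.

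Reactive astrocyte genes had a median of 0.59 in astrocytes, where 3 of 25 were called higher (1.97% of all genes were), and 0.08 in microglia, where 0 were called by edgeR. *S100a6*, a calcium-binding protein, had 13, 23 and 16 counts in WT and 64, 44 and 37 in KIN astrocytes and 12 to 27 in the microglia libraries, and its interaction of -1.56 ± 0.44 (SE) had an adjusted *p* of 0.056. Genes of the Sm proteins and the SMN complex, which build splicing particles, had a median interaction of -0.60 over 20 genes, 16 of them below 0. Heat shock proteins and chaperonins had one of -0.44 over 39 genes. No gene of either list had an interaction called by edgeR or DESeq2, and 0 and 0 were higher and 2 and 8 lower with unadjusted *p* up to 0.05.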
